A study of Mus musculus with 24 samples.

Results

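The calcium/calmodulin-dependent protein kinases (CaM kinases) described here are 7 genes: Camk2a, Camk2b, Camk2d and Camk2g, which encode the α, β, δ and γ subunits of CaMKII, Camk4, which encodes CaMKIV, and Camkk1 and Camkk2, which encode the CaM kinase kinases. They were taken by name from the 33902 gene symbols of a single-nucleus RNA sequencing (snRNA-seq) count table. All 7 were found, each with a value in every one of the 17 cell types of the table. The names were chosen with earlier results of these data known. The study profiled the ventral hippocampus of inbred mice. RNA and chromatin accessibility (snATAC-seq) were measured in C57BL/6J (B6), the strain of the mouse reference genome, and in DBA/2J (D2). All animals were adult males of 10 to 16 weeks. Each strain had 2 libraries per assay, and each library combined tissue from about 2 animals, so the spread between libraries is a spread between pools. B6 reads were mapped to mm10 and D2 reads to an mm10 in which the known D2 substitutions had been swapped in. For RNA, NeuN-positive and NeuN-negative nuclei were sorted and recombined, so the number of nuclei of a type is partly set by the sort.

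When calcium enters a neuron it binds calmodulin, and calcium-loaded calmodulin switches on the CaM kinases. CaMKII is a holoenzyme assembled from many subunits that can phosphorylate itself and stay active after calcium has fallen, and in hippocampal excitatory neurons it is known for its part in long-term potentiation at the postsynaptic density. The CaM kinase kinases act a step earlier: they phosphorylate CaMKIV, a largely nuclear kinase that acts on transcription factors such as CREB, and CaMKI, and Camkk2 also acts on the energy sensor AMPK. Camk2a and Camk2b are known as the neuronal CaMKII genes, while Camk2d and Camk2g are used in many tissues.

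The snRNA-seq libraries held 43048686 to 56452272 counts from 6312 to 8707 nuclei each. The counts of a cell type in a library ran from 139713 in the Cajal-Retzius cluster (CR-CR) to 11352265 in dentate gyrus excitatory neurons (Exc-DG). Levels are given as CPM, the counts of a gene scaled to a total of 1000000 for that cell type in that library, and libraries are named by the numbers 2 and 3 that the table gives them. The names of cell types are the authors' (Exc for excitatory, Inh for inhibitory, NN for non-neuronal). Markers of CA3, of MGE and CGE interneurons, of Cajal-Retzius cells, astrocytes (NN-Astro), oligodendrocytes (NN-ODC), their precursors (NN-OPC), microglia (NN-MGC) and vascular cells (NN-VLMC) had their highest summed level in the cell type of that name. There were 3 exceptions. The dentate markers Prox1, C1ql2 and Dsp were higher in CR-CR, with Exc-DG at 93.4% of that sum. The markers Lamp5 and Ndnf were also highest in CR-CR, with Inh-Lamp5 at 48.3%. The CA1 markers in Exc-CA1-Fras1 reached 13.3% of their highest sum, so this cluster is called by its name only.

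The promoters of Camkk1 and Camk2d are printed here, Camkk1 for its difference between strains and Camk2d for the largest difference in promoter accessibility between neuron classes. Each run is 300 bases, from 250 before to 50 after the RefSeq gene start, on GRCm38.p6 (the assembly behind mm10), 5′ to 3′ on the strand of the gene. The Camkk1 run is chr11:73018738-73019037 and the Camk2d run is chr3:126596701-126597000, both on the plus strand. Both lie wholly inside a snATAC-seq peak. Capitals mark the letters GGGCGG (the GC box) and CCAAT, or their reverse complements.
Camkk1: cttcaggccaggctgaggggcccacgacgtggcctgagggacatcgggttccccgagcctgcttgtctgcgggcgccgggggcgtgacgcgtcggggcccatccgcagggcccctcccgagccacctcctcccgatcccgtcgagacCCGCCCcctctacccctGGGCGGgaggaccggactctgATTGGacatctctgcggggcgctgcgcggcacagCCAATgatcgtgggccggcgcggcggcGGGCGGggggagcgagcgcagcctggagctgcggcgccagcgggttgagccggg
Camk2d: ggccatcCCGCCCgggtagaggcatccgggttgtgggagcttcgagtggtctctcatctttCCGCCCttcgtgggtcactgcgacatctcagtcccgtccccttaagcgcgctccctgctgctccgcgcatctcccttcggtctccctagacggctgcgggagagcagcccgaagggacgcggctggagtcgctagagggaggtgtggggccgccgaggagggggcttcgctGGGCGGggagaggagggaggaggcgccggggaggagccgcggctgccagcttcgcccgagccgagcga
The Camkk1 run holds 3 GC boxes and 2 CCAAT matches, and the Camk2d run holds 3 GC boxes and no CCAAT. Searched on both strands, GGGCGG was present in 35.7% and CCAAT in 37.4% of 32851 RefSeq promoters of this length. TGACG, found once in the Camkk1 run, was in 20.8% of promoters, and TATAAA, in neither run, was in 13.6%. The share of G and C was 75.3% in the Camkk1 run and 70.3% in the Camk2d run, against a median of 52.7% over all these promoters. A match is a description of the sequence and not a site shown to be used.

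On mm10 the genes lie at chr18:60925618-60988152 (Camk2a, plus strand), chr11:5969644-6066362 (Camk2b, minus), chr3:126596302-126846326 (Camk2d, plus), chr14:20734875-20794088 (Camk2g, minus), chr18:32934931-33191228 (Camk4, plus), chr11:73019008-73042073 (Camkk1, plus) and chr5:122731170-122779409 (Camkk2, minus), as annotated in GENCODE vM21. All 7 are protein-coding.

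Across cell types, Camk2a, Camk2b, Camkk1 and, outside Exc-DG, Camk4 were high in excitatory neurons. Camk2d was high in NN-MGC, NN-VLMC and NN-Astro and in the excitatory clusters Exc-CA1-Camk2d and Exc-Cdh12. Camk2g was high in NN-Astro alone. Camkk2 was high in NN-MGC and in many neuronal types, and lower in the other non-neuronal types. Levels are compared between cell types for 1 gene at a time, since CPM does not correct for transcript length. The order of the cell types below is that of the mean of all 4 libraries, and neighbours in the order are called separate where the lowest library of the higher type lies above the highest library of the lower type.

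Camkk1, the upstream kinase kinase, was highest in Exc-DG, at 92.9 ± 21.9 CPM (SD, n = 4 libraries), followed by Exc-CA1-Camk2d at 66.7, Exc-CA3 at 56.5 and Exc-CA1-Galntl6 at 50.5 CPM. The inhibitory types lay between 16.9 CPM in Inh-MGE and 25.3 in Inh-CGE, and the lowest mean was 5.06 CPM in NN-ODC. None of the 16 neighbouring pairs in this order was separate over the libraries of both strains. Camkk2, the other kinase kinase, was highest in NN-MGC at 100.9 ± 15.3 CPM. From NN-MGC through its next 7 types, Exc-CA1-Camk2d at 92.0 to Exc-Gpc6 at 70.2 CPM, no neighbours were separate. Exc-Gpc6 was separate from Exc-CA3 below it, at 56.65 CPM. When the columns were scaled by TMM (trimmed mean of M-values) over all columns in place of their totals, NN-MGC fell to 79.1 CPM and Exc-DG became the highest. Camkk2 was lowest in NN-ODC, at 5.99 ± 1.94 CPM, and this step was separate from the type above it.

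Camk4 was highest in Exc-Cdh12 at 361 ± 30.6 CPM, Exc-ENT at 311 ± 33.7 and Exc-Gpc6 at 279 ± 13.1 CPM. Its level in Exc-DG was low for an excitatory type, 64.6 ± 11.1 CPM, which ranked 12th of 17, below NN-OPC at 74.8 ± 4.44 CPM, although the ranges of these types overlapped. Among inhibitory types it was high in Inh-CGE, at 221 ± 38.8 CPM, and low in Inh-MGE, at 58.5 ± 5.57 CPM. Camk4 was lowest in NN-ODC at 10.7 ± 3.48 CPM. The antisense gene 2310026I22Rik overlaps Camk4, and where reads are assigned without strand the genes can share counts.

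Camk2a was highest in Exc-DG, at 1050 ± 103 CPM, and Exc-CA1-Galntl6, at 1037 ± 98.3 CPM, which were not separate from each other. Both were separate from Exc-CA3, at 851 ± 51.3 CPM. Exc-ENT, at 405 ± 36.0 CPM, was the lowest excitatory type, below the other 7 and above all inhibitory types in every library. The 3 inhibitory types lay between 244 and 284 CPM without separation, and the other types lay between 48.7 CPM in NN-OPC and 138 CPM in CR-CR.

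Camk2b had the same top type, Exc-DG at 348 ± 26.8 CPM, followed by Exc-CA3 at 270 ± 27.7 and Exc-CA1-Galntl6 at 198 ± 22.2 CPM, with every step separate. It was lowest in NN-ODC, at 20.9 ± 7.18 CPM. In the Cajal-Retzius cluster it stood at 139.5 ± 17.1 CPM, within the range of the middle excitatory types. Over the 17 cell types, the Pearson correlation of log2(CPM + 1) was 0.91 between Camk2a and Camk2b, 0.92 between Camk2a and Camkk1 and 0.92 between Camk2b and Camkk1. These are descriptions over types that share libraries and depth.

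Camk2d was highest in Exc-CA1-Camk2d, at 476 ± 54.0 CPM. This cluster carries the name of the gene, so that value describes how it was named. Apart from that cluster, Camk2d was highest in NN-MGC, at 412 ± 56.6 CPM, then in Exc-Cdh12 at 273 ± 50.2, NN-VLMC at 269 ± 35.6 and NN-Astro at 240 ± 12.8 CPM. It was lowest in Exc-DG at 13.3 ± 2.59 and Exc-CA3 at 12.8 ± 2.85 CPM, which are among the 3 highest types of Camk2a and of Camk2b, and this pair was separate from every other type except CR-CR. In CR-CR, D2 library 3 had 0 counts of Camk2d, which allows a level of up to 18.5 CPM, and the other 3 libraries were at 52.1 to 99.4 CPM.

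Camk2g stood out in astrocytes, at 380 ± 54.9 CPM. Its lowest astrocyte library, at 331 CPM, lay above the highest library of every other type, the next mean being 103 ± 18.4 CPM in Exc-DG. The other 16 types ran without a wide gap from there to 27.5 ± 4.27 CPM in NN-ODC.

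**Figure D1:**
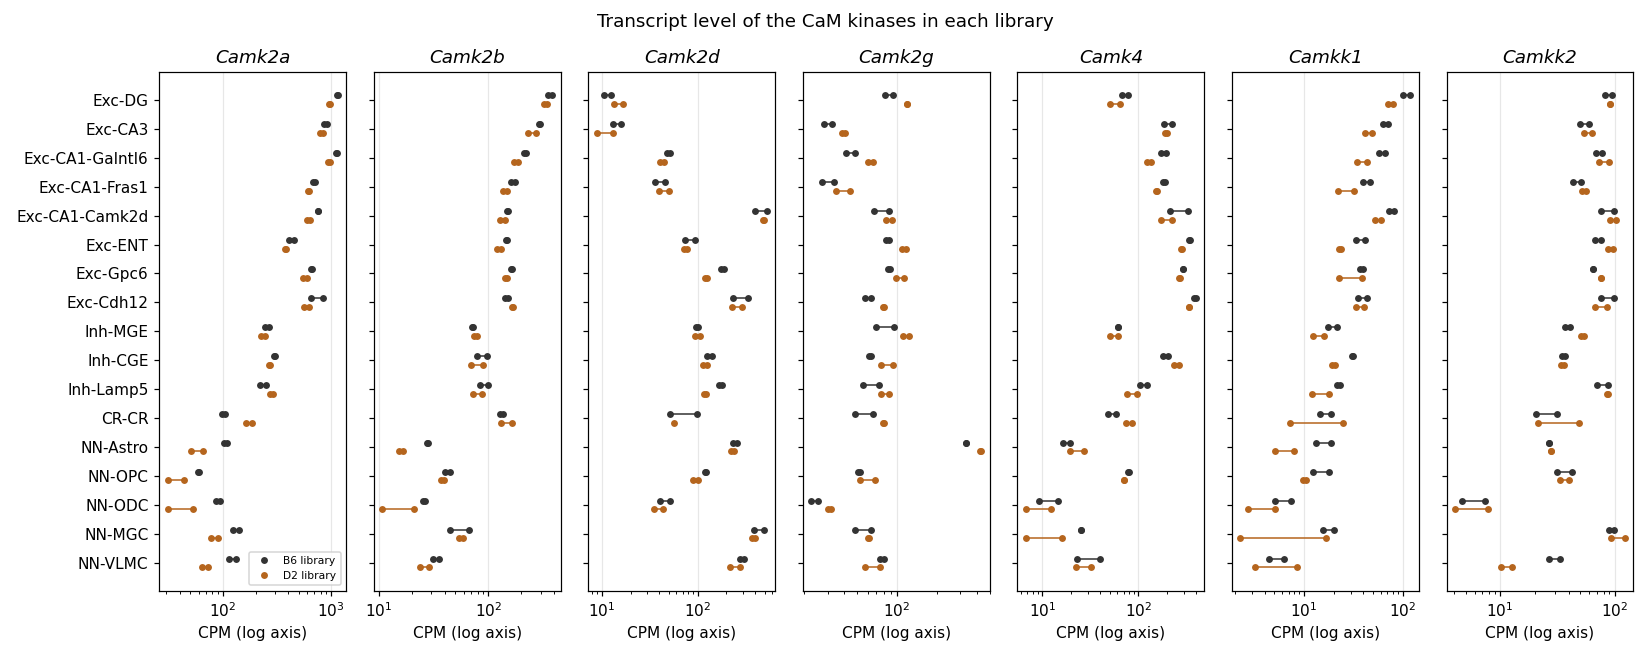
Level of each CaM kinase transcript (CPM of the cell type total, log axis) in the 17 cell types, with a point for each of the 2 B6 and 2 D2 libraries and a line joining those of a strain. The D2 library with 0 counts of Camk2d in CR-CR has no point. Camk2a, Camk2b and Camkk1 are highest in Exc-DG, Camk2g is highest in NN-Astro, where all 4 libraries lie at 331 CPM or more, and Camk2d is lowest in Exc-CA3 and Exc-DG.

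The make-up of the CaMKII transcripts differed between cell types. In Exc-DG, Camk2a made up 69.3% and Camk2d 0.891% of the summed counts of the 4 Camk2 genes, as means over the 4 libraries. In Exc-CA1-Galntl6, Camk2a reached 77.6%. In astrocytes Camk2g was the main gene, at 52.4%, with Camk2d at 33.1%. In microglia Camk2d made up 64.8% and in vascular cells 57.9%. The inhibitory types were more even, with Camk2d at 19.2% to 26.1% and Camk2g at 12.9% to 19.2%. These are shares of counts, which depend on gene length in nuclear RNA, so they compare cell types and do not give the ratio of subunits in the enzyme.

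**Figure D2:**
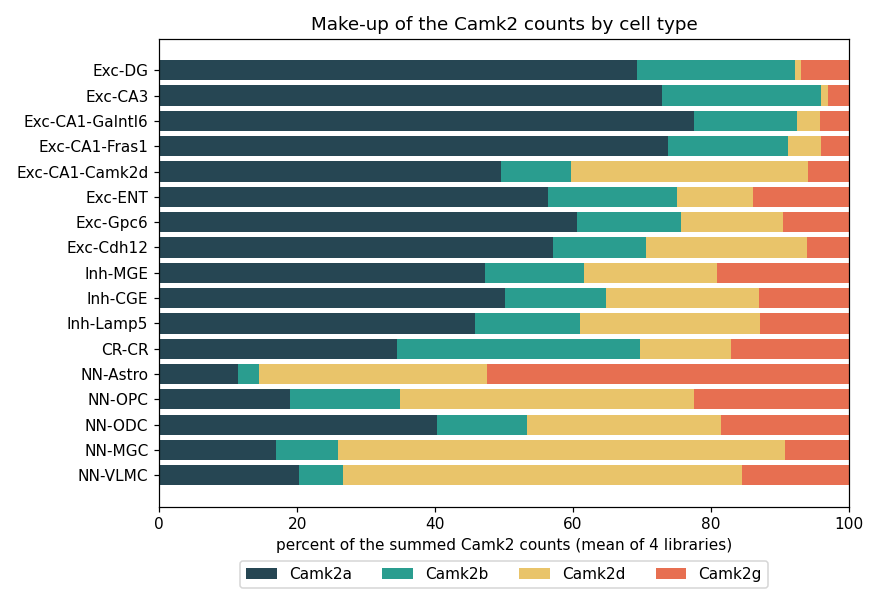
Percent of the summed Camk2 counts that belong to Camk2a, Camk2b, Camk2d and Camk2g in each cell type, as the mean of 4 libraries. Camk2a has the largest share in the excitatory types (69.3% in Exc-DG), Camk2g in NN-Astro (52.4%) and Camk2d in NN-MGC (64.8%).

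Genes outside the family with a like pattern were ranked by the Pearson correlation of mean log2(CPM + 1) over the 17 cell types among genes that reached 10 CPM in at least 1 type. The highest were Hipk4 and Rasgef1a for Camk2a (0.975 each), Nvl for Camk2b (0.956), Ppm1m for Camk2d (0.846), Tspan7 for Camk2g (0.901), 4930405A21Rik for Camk4 (0.921), Sugp2 for Camkk1 (0.949) and Snx10 for Camkk2 (0.916). Camkv, which encodes a kinase-like protein of the same family without kinase activity, was the third for Camk2a, at 0.966.

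The class comparison asked whether excitatory and inhibitory neurons, and neurons and glia, differed within the same libraries. Counts were summed over the 8 excitatory, the 3 inhibitory and the 4 glial types (NN-Astro, NN-ODC, NN-OPC and NN-MGC) of each library and tested with edgeR's quasi-likelihood F test with the library as a term. Between excitatory and inhibitory neurons all 7 genes passed, 5 higher and 2 lower in excitatory neurons, where 27.8% of 20520 symbols were higher and 28.1% were lower. Between neurons and glia all 7 passed as well, 5 higher and 2 lower in neurons, against 34.9% and 35.5% of 21372 symbols. With calls on so large a share of all symbols, the counts say little, and the sizes are given below.

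Camk2a stood at 764 to 909 CPM in the excitatory sums and at 248 to 272 CPM in the inhibitory sums of the 4 libraries, with no overlap. The log2 difference was 1.75 (SE 0.05, n = 4 libraries, adjusted p = 1.8e-11, edgeR). Camk2b, at 207 to 252 against 74.5 to 83.6 CPM, and Camkk1, at 44.0 to 76.4 against 15.1 to 24.8 CPM, differed by 1.60 (SE 0.06) and 1.66 (SE 0.08). The excitatory libraries lay above the inhibitory ones for each of these genes. The steps for Camk4 and Camkk2 were smaller, 0.68 (SE 0.08) and 0.73 (SE 0.06). For Camk2d and Camk2g the sign was the other way. Camk2d stood at 68.8 to 99.8 CPM in excitatory and 108 to 122 CPM in inhibitory sums, a log2 difference of -0.33 (SE 0.09, adjusted p = 0.0067, edgeR), and Camk2g differed by -0.22 (SE 0.05, adjusted p = 0.0021, edgeR). Camk2g overlapped between the classes over all libraries, at 56.7 to 82.7 against 67.7 to 108 CPM, but was lower in the excitatory sum of each of the 4 libraries. Without the library term neither of these genes passed (adjusted p = 0.070 for Camk2d and 0.35 for Camk2g, edgeR).

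Between neurons and glia, Camk2a was at 685 to 814 CPM in the neuronal sums and at 46.2 to 95.6 CPM in the glial sums, a log2 difference of 3.53 (SE 0.13, adjusted p = 6.8e-08, edgeR). Camk2b differed by 3.04 (SE 0.07), Camk4 by 2.67 (SE 0.08), Camkk1 by 2.56 (SE 0.11) and Camkk2 by 1.42 (SE 0.06). Camk2d was lower in neurons, at 76.1 to 101.0 against 170 to 186 CPM, by -0.83 (SE 0.09), and Camk2g, at 58.3 to 86.7 against 155 to 248 CPM, by -1.31 (SE 0.09, adjusted p = 4.2e-06, edgeR). The glial types other than astrocytes had Camk2g means of 27.5 to 58.5 CPM, and with each cell type given equal weight the difference was -0.14 (adjusted p = 0.078, limma).

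Accessibility at the promoters was compared between the neuron classes in the snATAC-seq libraries, whose sums held 80631768 to 107489343 counts in excitatory and 8490139 to 13401546 in inhibitory neurons. A promoter peak was a peak overlapping 500 bp on either side of the annotated gene start. Each gene but Camk4 had such a peak, and the nearest peak of Camk4 lay 508 bp away. All 6 promoter peaks passed between excitatory and inhibitory neurons, 1 higher and 5 lower in excitatory neurons, where 33.2% of 300819 peaks were higher and 30.0% lower (edgeR).

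The Camk2a peak was the higher one, at 34.8, 35.2, 37.9 and 35.8 CPM in the excitatory sums of B6 libraries 2 and 3 and D2 libraries 2 and 3, and at 19.1, 21.2, 18.2 and 17.6 CPM in the inhibitory sums. All excitatory values lay above all inhibitory ones, with a log2 difference of 0.70 (SE 0.06, adjusted p = 1.9e-14, edgeR). The Camk2d peak, chr3:126595726-126598338, which holds the Camk2d run printed above, was at 18.9 to 21.8 CPM in excitatory and 42.2 to 49.1 CPM in inhibitory sums, a difference of -1.37 (SE 0.05, adjusted p = 3.1e-26, edgeR). Its direction was that of the transcript, and so was that of Camk2g (-0.996, SE 0.05). Camkk1, Camk2b and Camkk2 had their transcripts higher and their promoter peaks lower in excitatory neurons, by -0.53 (SE 0.04), -0.38 (SE 0.04) and -0.65 (SE 0.05). The Camkk1 peak, chr11:73018469-73019799, stood at 38.9 to 40.6 CPM in excitatory and 45.5 to 52.8 CPM in inhibitory sums, which did not overlap. The tested differences are on the TMM scale, which for these peaks lies below the log2 ratio of plain CPM by 0.22 for Camk2a to 0.24 for Camkk2, so the plain log2 ratio of Camk2b was -0.14 and that of Camkk1 -0.29.

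**Figure D3:**
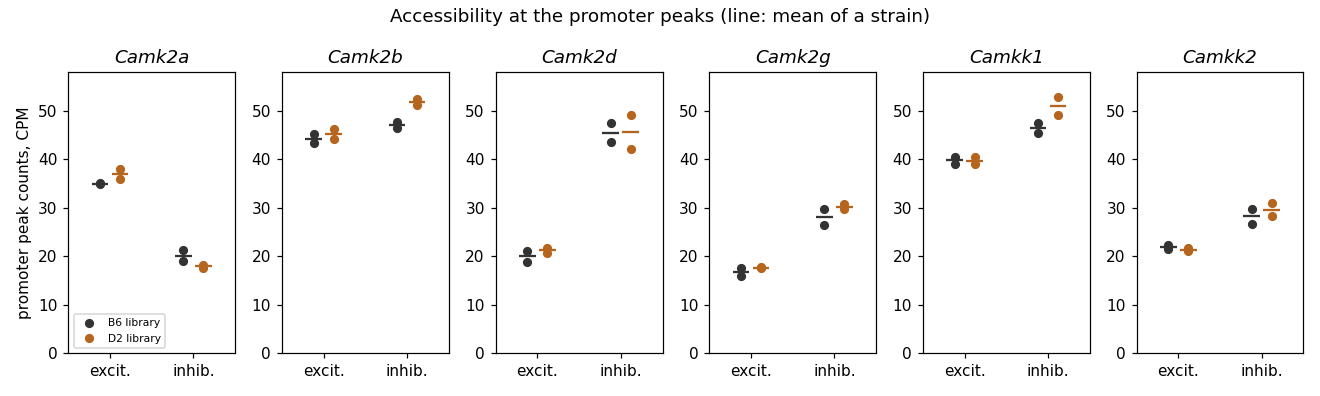
Accessibility of the promoter peak of 6 CaM kinase genes (CPM of the class total) in excitatory and inhibitory neurons, with a point per library and a line at the mean of each strain. The Camk2a peak is higher in excitatory neurons (34.8 to 37.9 against 17.6 to 21.2 CPM), the Camk2d peak is lower (18.9 to 21.8 against 42.2 to 49.1 CPM), and no difference between B6 and D2 was called at any of the peaks.

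The strain comparison asked which CaM kinase transcripts differed between D2 and B6 within each cell type. In 13 cell types Camkk1 and in all 17 the other genes could be tested, 115 of 119 possible tests, with Camkk1 failing the filter on low counts in NN-ODC, NN-MGC, CR-CR and NN-VLMC. With edgeR's quasi-likelihood test and Benjamini-Hochberg adjustment over all symbols of a cell type, 33 tests passed at 0.05, 9 with the higher level in D2 and 24 with the lower level. Over all symbols and cell types together, 12.9% of 219518 tests were called higher and 9.25% lower in D2. Many of these symbols had counts in 1 strain only. Over the 24691 symbols with counts in both strains, 6.24% of 205592 tests were called higher and 8.40% lower, and of the members 6 tests were higher and 24 lower. Camkk1, Camk2a, Camk2b and Camk4 were mostly lower in D2, and Camk2g was higher. Differences below are log2 fold changes, D2 minus B6, with n = 2 libraries per strain. An exact permutation test of 2 against 2 libraries cannot go below p = 0.33, so the p-values come from the model over all symbols. Of the 33 calls, 16 held without each library in turn, 17 held with DESeq2 and 14 held under all 10 alternatives.

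In cell types where a member was called lower, 13.8% of all symbols tested in Exc-DG were called lower in D2, 14.1% in Exc-CA1-Galntl6, 12.3% in Exc-CA1-Fras1, 7.40% in Exc-CA1-Camk2d, 12.9% in Exc-CA3, 11.6% in Exc-ENT, 8.79% in Exc-Gpc6, 5.61% in Inh-Lamp5, 11.7% in NN-Astro, 8.93% in NN-ODC and 7.30% in NN-OPC. Of the members tested there, 3 of 7 were called lower in Exc-DG and in NN-Astro, 4 of 7 in Exc-CA1-Galntl6, in Exc-CA1-Fras1 and in Exc-ENT, 1 of 7 in Exc-CA1-Camk2d, Exc-CA3, Exc-Gpc6, Inh-Lamp5 and NN-OPC, and 1 of 6 in NN-ODC. Where a member was called higher, the share of all symbols called higher was 22.2% in Exc-DG, 20.9% in Exc-CA1-Galntl6, 19.2% in Exc-CA3, 16.4% in Exc-ENT, 13.2% in Inh-MGE, 9.06% in Inh-CGE and 14.5% in NN-Astro, and the members called there numbered 2 of 7 in Exc-ENT and Inh-MGE and 1 of 7 in the others. Over symbols with counts in both strains the shares called higher were 11.8%, 11.6%, 9.75%, 8.00%, 5.04%, 3.23% and 8.16% in the same order of cell types. No member was called in NN-MGC, Exc-Cdh12, CR-CR or NN-VLMC, the 4 types whose smallest library held the fewest counts.

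Camkk1 was lower in D2 in 7 of the 13 cell types tested, and its fitted difference was below 0 in all 13. In Exc-DG, libraries 2 and 3 of B6 had 100.1 and 120.2 CPM, and those of D2 had 80.6 and 70.8 CPM. Both D2 libraries lay below both B6 libraries, with a difference of -0.56 (SE 0.10, adjusted p = 0.00038, edgeR). In Exc-CA1-Galntl6 it stood at 57.6 and 66.7 against 43.1 and 34.8 CPM, a difference of -0.69 (SE 0.12, adjusted p = 0.00020, edgeR). In Exc-ENT the values were 33.4 and 41.8 against 24.0 and 22.5 CPM (-0.74, SE 0.16, adjusted p = 0.00037, edgeR). The libraries of the strains did not overlap in either type.

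The remaining Camkk1 calls were Exc-CA3 (-0.60, SE 0.12), Exc-CA1-Fras1 (-0.70, SE 0.17), Exc-CA1-Camk2d (-0.48, SE 0.14) and NN-Astro, where it fell from 18.7 and 13.3 CPM to 7.87 and 5.06 CPM (-1.22, SE 0.29, adjusted p = 0.0013, edgeR). The inhibitory types had fits of like size that were not called: -0.66 (SE 0.23, adjusted p = 0.063) in Inh-CGE, -0.60 (SE 0.37) in Inh-Lamp5 and -0.52 (SE 0.22) in Inh-MGE (edgeR). Exc-Cdh12 had a fit of -0.07 (SE 0.26). The calls in Exc-DG, Exc-CA1-Galntl6, Exc-CA3 and Exc-ENT held under all 10 alternatives. That in NN-Astro held without each library but not with DESeq2 (adjusted p = 0.11). That in Exc-CA1-Fras1 was lost without D2 library 3 (-0.46, adjusted p = 0.081, and -1.04 without D2 library 2), and that in Exc-CA1-Camk2d without B6 library 3 (-0.37, adjusted p = 0.084), D2 library 2 (-0.60, adjusted p = 0.11) or D2 library 3 (-0.37, adjusted p = 0.38, edgeR). The Camkk1 difference was not shown to vary between the 17 cell types (F = 1.02, adjusted p = 0.78, edgeR). Over all 17 types the D2 libraries lay below the B6 libraries without overlap in 12 and above them in 0. The background was 204570 tests of symbols with counts in both strains and a mean of at least 5 CPM in the type. Of these, 26.2% had D2 below B6 in this way and 27.4% had it above.

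Camkk2 was called higher in D2 in 2 types, Inh-MGE and Exc-ENT. In Inh-MGE it stood at 40.8 and 37.2 CPM in B6 and at 54.5 and 50.9 CPM in D2, a difference of 0.41 (SE 0.14, adjusted p = 0.044, edgeR). In Exc-ENT it stood at 66.8 and 76.2 against 96.4 and 87.5 CPM, a difference of 0.32 (SE 0.11, adjusted p = 0.024, edgeR). The D2 libraries were above the B6 libraries in both. Neither call was stable. That in Inh-MGE was lost whichever library was left out (0.33 to 0.47, adjusted p = 0.052 to 0.27), and that in Exc-ENT without B6 library 2 (0.22) or D2 library 2 (0.23, adjusted p = 0.27 for both, edgeR). In Exc-DG, where Camkk1 fell, Camkk2 had a fit of 0.02 (SE 0.08, adjusted p = 0.87, edgeR).

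Camk4 was lower in D2 in 4 excitatory types and higher in 1 inhibitory type. In Exc-CA1-Galntl6 it stood at 171 and 193 CPM in B6 and 134 and 123 CPM in D2, which did not overlap, a difference of -0.53 (SE 0.08, adjusted p = 5.9e-05, edgeR). The others were Exc-DG (-0.36, SE 0.11), Exc-CA1-Fras1 (-0.34, SE 0.09) and Exc-ENT (-0.32, SE 0.08). In Inh-CGE it stood at 201 and 179 CPM in B6 and at 267 and 236 CPM in D2, so both D2 libraries were higher, with a difference of 0.39 (SE 0.13, adjusted p = 0.043, edgeR). The Inh-CGE markers stood at 11997 and 11933 CPM (Adarb2) and at 524 and 609 CPM (Vip) in B6 and D2. Whether the mix of cells within Inh-CGE differed between the strains was not tested. The Inh-CGE call was lost without B6 library 3 (0.31, adjusted p = 0.31), D2 library 2 (0.28, adjusted p = 0.39) or D2 library 3 (0.50, adjusted p = 0.29, edgeR), and the fits of this cell type without a D2 library called 0 of all symbols, so they say nothing of Camk4 in particular. It was also lost over symbols with counts in both strains and with DESeq2. The Camk4 call in Exc-DG was lost without B6 library 3 (-0.26, adjusted p = 0.072) or D2 library 3 (-0.18, adjusted p = 0.31) and was -0.56 without D2 library 2, and that in Exc-CA1-Fras1 without D2 library 3 (-0.32, adjusted p = 0.072, edgeR).

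The Camk4 strain difference was tested between classes. Summed over inhibitory types, Camk4 stood at 109 and 103 CPM in B6 and 130 and 116 CPM in D2, and summed over excitatory types at 186 and 195 against 169 and 153 CPM. D2 was above B6 in the inhibitory sums and below in the excitatory sums. Within the inhibitory class only Inh-CGE was higher in D2, while Inh-Lamp5 stood at 104 and 123 CPM in B6 and 96.3 and 76.2 CPM in D2 (-0.43, SE 0.18) and Inh-MGE at 60.9 and 61.4 against 61.6 and 50.2 CPM (-0.15, SE 0.14), neither of them called. Inh-CGE supplied 29.1% and 26.6% of the inhibitory counts in B6 and 31.4% and 33.4% in D2. The difference of the differences was 0.49 (SE 0.09, adjusted p = 0.0068, edgeR), and 0.949% of 20552 symbols were called in this direction. A contrast chosen after these values were seen set Inh-CGE against the other inhibitory types, with 0.65 (SE 0.14, adjusted p = 0.021, edgeR), where 0.415% of symbols were called, and it did not pass without B6 library 3 (0.50, adjusted p = 0.31), D2 library 2 (0.70, adjusted p = 0.30) or D2 library 3 (0.62, adjusted p = 0.13, edgeR). A further contrast, also chosen after these values were seen, set Inh-CGE against excitatory neurons. It gave 0.69 (SE 0.09, adjusted p = 3.2e-07, edgeR), where 1.08% were called, and 0.59 to 0.77 without each of the 4 libraries. Inh-CGE was picked from these same values, so neither contrast is independent support. Without D2 library 2 or D2 library 3 the class difference was 0.43 and 0.49 and did not pass (adjusted p = 0.23 and 0.13, edgeR).

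Camk2a was lower in D2 in 7 cell types, 4 excitatory and 3 glial. In Exc-DG it stood at 1131 and 1148 CPM in B6 and at 966 and 956 CPM in D2. The strains did not overlap, and the difference was -0.27 (SE 0.06, adjusted p = 0.0023, edgeR). The differences in Exc-CA1-Galntl6 (-0.26, SE 0.05), Exc-CA1-Fras1 (-0.24, SE 0.07) and Exc-ENT (-0.24, SE 0.08) were of the same size. The call in Exc-CA1-Fras1 was lost without B6 library 3 (-0.22, adjusted p = 0.072) or D2 library 3 (-0.21, adjusted p = 0.11), and that in Exc-ENT without B6 library 3 (-0.17, adjusted p = 0.26) or D2 library 3 (-0.20, adjusted p = 0.17, edgeR). In the 3 inhibitory types the fits were -0.16, -0.16 and 0.22, and none was called.

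In glia the Camk2a differences were larger. In NN-Astro it stood at 110 and 103 CPM in B6 and 65.5 and 51.1 CPM in D2 (-0.78, SE 0.13, adjusted p = 5.3e-06, edgeR). In NN-ODC it stood at 86.9 and 93.8 against 53.3 and 31.0 CPM (-1.01, SE 0.19), and in NN-OPC at 59.0 and 60.7 against 44.1 and 30.9 CPM (-0.68, SE 0.20). The D2 libraries were lower in each of these types. Without D2 library 3 the difference was -0.67 in NN-ODC and -0.43 in NN-OPC (adjusted p = 0.030 and 0.35, edgeR), and NN-OPC was also lost without B6 library 3 (-0.66, adjusted p = 0.058, edgeR). Over the class sums, the Camk2a strain difference in glia minus that in excitatory neurons was -0.46 (SE 0.10, adjusted p = 0.0041, edgeR), and 4.20% of 20552 symbols were called in this direction. Without D2 library 3 it was -0.31 and did not pass (adjusted p = 0.32, edgeR).

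Camk2a and a set of neuronal markers both had lower means in D2 in all 4 glial types. The 5 neuronal and excitatory markers Rbfox3, Snap25, Syt1, Slc17a7 and Neurod2 summed, in the 4 glial types, to between 4.50% and 19.9% of their level in excitatory neurons of the same library. The log2 ratio of that sum, D2 to B6, was -0.62 in NN-Astro, -0.65 in NN-ODC, -0.30 in NN-OPC and -0.72 in NN-MGC. In NN-Astro the marker sum was at 8.78% of the excitatory level in B6 and 5.64% in D2, and Camk2a at 11.8% and 7.59%. In NN-ODC the marker sum was at 10.5% and 6.63%, and Camk2a at 10.0% and 5.49%. In NN-OPC the marker sum was at 13.3% and 10.7%, and Camk2a at 6.6% and 4.88%. In NN-MGC they were at 18.6% and 11.1%, and at 14.8% and 10.9%. On this scale Camk4 was higher in D2 in NN-Astro (9.44% and 14.3%) and NN-OPC and lower in NN-ODC and NN-MGC. Camk2b was higher in D2 in NN-MGC (22.3% and 26.9%) and NN-OPC and lower in NN-Astro and NN-ODC. Camkk1 was lower in all 4 types. None of the 5 markers was at 0 in any library of the glial types. In summed counts, glial transcription and neuronal RNA carried into glial droplets cannot be told apart, and the part of the latter in the strain differences of Camk2a, Camk2b and Camkk1 in glia was not tested.

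**Figure D4:**
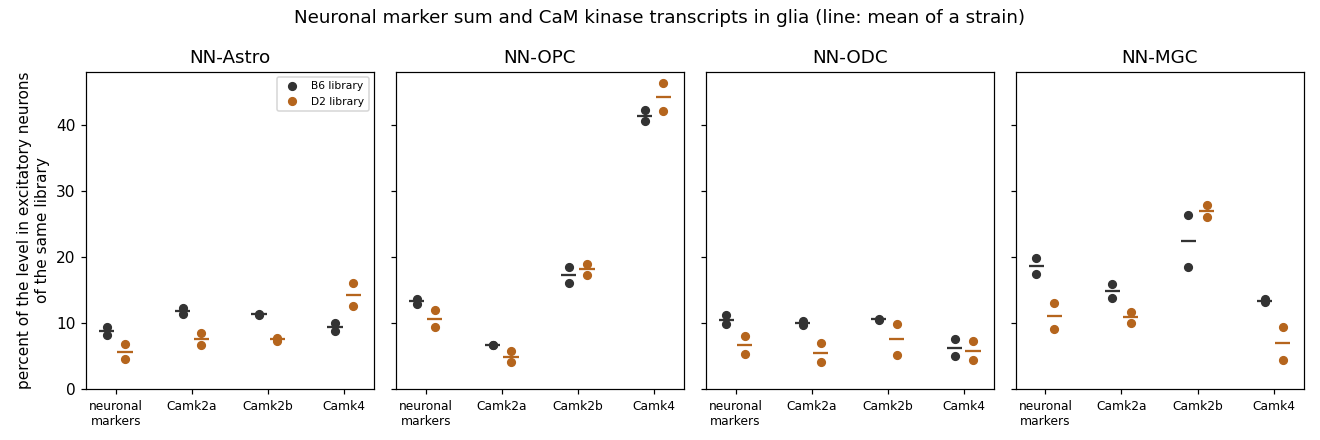
Level in glial types of the 5 neuronal markers together and of CaM kinase transcripts, each as percent of its level in excitatory neurons of the same library, with a point per library and a line at the mean of each strain. In NN-Astro the marker sum is 8.78% in B6 and 5.64% in D2, and Camk2a is 11.8% and 7.59%.

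Camk2b was lower in D2 in 4 types. In Exc-CA1-Galntl6 it stood at 219 and 213 CPM in B6 and at 172 and 188 CPM in D2, with no overlap (-0.30, SE 0.07, adjusted p = 0.0027, edgeR). The other calls were Exc-CA1-Fras1 (-0.31, SE 0.10), Exc-ENT (-0.27, SE 0.10) and NN-Astro (-0.72, SE 0.20), where the neuronal markers moved as given above. In Exc-DG it stood at 382 and 353 against 339 and 318 CPM, a difference of -0.18 (SE 0.07) that was not called (adjusted p = 0.065, edgeR). The call in Exc-CA1-Galntl6 was lost without D2 library 2 (-0.25, adjusted p = 0.067), that in Exc-CA1-Fras1 without B6 library 3 (-0.26, adjusted p = 0.079) or D2 library 3 (-0.22, adjusted p = 0.25), and that in Exc-ENT whichever library was left out (-0.22 to -0.31, adjusted p = 0.065 to 0.23, edgeR). That in NN-Astro held without each library but not with DESeq2 (adjusted p = 0.20).

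Camk2d was called lower in D2 in Exc-Gpc6 and Inh-Lamp5. In Exc-Gpc6 it stood at 187 and 175 CPM in B6 and at 120 and 126 CPM in D2, a difference of -0.60 (SE 0.12, adjusted p = 9.6e-05, edgeR). In Inh-Lamp5 it stood at 181 and 169 against 123 and 118 CPM, a difference of -0.58 (SE 0.16, adjusted p = 0.011, edgeR). The strains did not overlap in either type. The call in Exc-Gpc6 held under all 10 alternatives, and that in Inh-Lamp5 was lost without D2 library 3 (-0.54, adjusted p = 0.12, edgeR) and with DESeq2 (adjusted p = 0.28). A contrast chosen after these values were seen set both types together against the other neurons and gave -0.80 (SE 0.11, adjusted p = 3.7e-06, edgeR), where 1.23% of 22368 symbols were called. It ranged from -0.57 without B6 library 2 to -1.06 without B6 library 3, and it did not pass without D2 library 2 (-0.75, adjusted p = 0.12, edgeR). The fits of the types themselves were nearer 0, and Exc-CA1-Camk2d, the type with the most Camk2d, supplied 6.10% and 8.17% of the counts of the other neurons in B6 libraries 2 and 3 and 9.72% and 10.2% in D2, so this contrast moves with the mix of types. In Exc-DG the fit was in the other direction, at 10.6 and 12.4 CPM in B6 and 16.8 and 13.6 CPM in D2 (0.38, SE 0.16, adjusted p = 0.086, edgeR). The table lists 7 short symbols inside Camk2d on the same strand, with 938 counts in the D2 libraries and 0 in the B6 libraries, which came to 8.91% of the D2 counts of Camk2d itself. With their counts added to Camk2d, Exc-Gpc6 (-0.48, adjusted p = 0.0018) and Inh-Lamp5 (-0.51, adjusted p = 0.026) stayed lower in D2, and Exc-DG was called higher in D2 (0.59, adjusted p = 0.012, edgeR).

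Camk2g, like Camkk2, was called in the higher direction alone. It was higher in D2 in 6 cell types, and its fit was above 0 in 16 of 17. In Exc-DG it stood at 81.9 and 93.6 CPM in B6 and at 119 and 118 CPM in D2, both above B6, with a difference of 0.41 (SE 0.08, adjusted p = 0.0011, edgeR). In NN-Astro, its main cell type, it stood at 331 and 334 CPM in B6 and at 422 and 432 CPM in D2 (0.45, SE 0.09, adjusted p = 0.00018, edgeR). The other calls were Exc-CA1-Galntl6 (0.49, SE 0.11), Inh-MGE (0.46, SE 0.14), Exc-CA3 (0.36, SE 0.13) and Exc-ENT (0.34, SE 0.10). The calls in Inh-MGE, Exc-CA3 and Exc-ENT were lost without B6 library 2, with 0.23 in Inh-MGE (adjusted p = 0.26, against 0.74 without B6 library 3), 0.26 in Exc-CA3 (adjusted p = 0.21) and 0.30 in Exc-ENT (adjusted p = 0.073), and each also without a D2 library: 3 for Inh-MGE (0.40, adjusted p = 0.13), 2 for Exc-CA3 (0.29, adjusted p = 0.25) and 3 for Exc-ENT (0.31, adjusted p = 0.085, edgeR). The D2 libraries lay above the B6 libraries without overlap in 14 of 17 types and below them in 1, NN-VLMC. Of 204570 tests of symbols with counts in both strains and at least 5 CPM, 27.4% had D2 above B6 in this way and 26.2% had it below. The 17 types come from the same 4 libraries, here and for Camkk1. In the class sums the glial minus the excitatory difference of Camk2g was 0.36 (SE 0.11, adjusted p = 0.042, edgeR), where 5.87% of symbols were called in this direction. No glial type alone gave so large a strain ratio as the glial sum: the fits were 0.45 in NN-Astro, 0.47 in NN-ODC, 0.25 in NN-OPC and 0.16 in NN-MGC, of which NN-Astro was called. Astrocytes, where Camk2g is highest, supplied 44.7% and 39.1% of the glial counts of B6 libraries 2 and 3, against 53.8% and 51.8% for D2, so the sum moves with the mix of glial types. The call was also lost without B6 library 3 (0.16, adjusted p = 0.51), D2 library 2 or D2 library 3, with RLE size factors, over symbols with counts in both strains (adjusted p = 0.056 for both, edgeR) and with DESeq2 (adjusted p = 0.37).

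**Figure D5:**
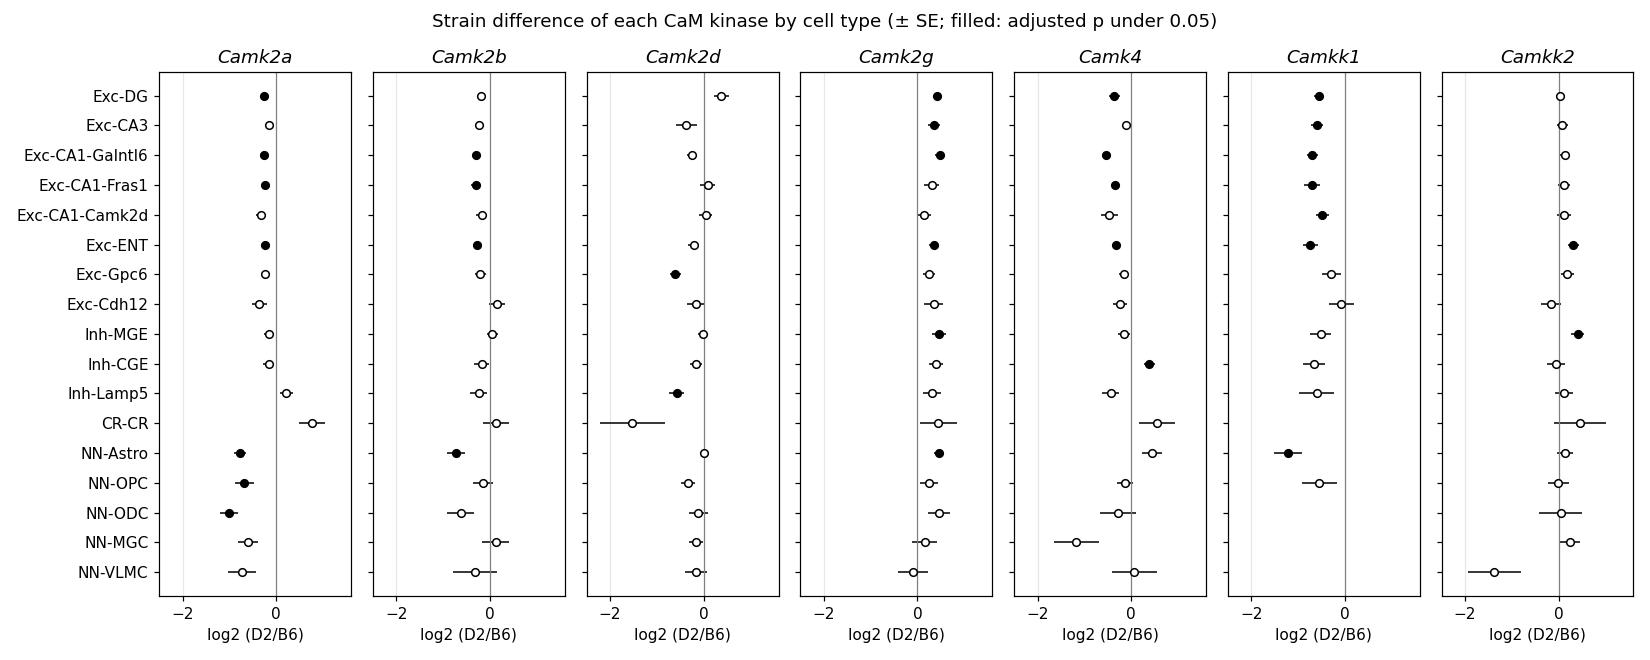
Log2 fold change, D2 minus B6, of each CaM kinase transcript in each cell type with its standard error, derived from F (edgeR, 2 libraries per strain). Points are filled where the adjusted p is under 0.05. Camkk1 lies below 0 in all 13 types tested, Camk2g lies above 0 in 16 of 17, and Camk4 is called lower in 4 excitatory types and higher in Inh-CGE (0.39).

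A test added after these values were seen asked for each gene whether the strain difference varied over the 17 cell types, in a model with library and cell type as terms. It passed for Camk2a (F = 4.84), Camk4 (F = 3.90) and Camk2d (F = 2.51), 3 of 7 genes, where 14.6% of 21050 symbols passed (edgeR, adjusted p = 2.0e-05, 0.00038 and 0.027). For Camkk1, Camk2b, Camk2g and Camkk2 a variation between types was not shown.

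None of the 6 promoter peaks was called between strains, in excitatory or in inhibitory neurons (edgeR, adjusted over all peaks), where 10.7% of 300819 and 1.30% of 282447 peaks were called. At an unadjusted p under 0.05, 2 peaks were listed in excitatory neurons, Camk2a and Camk2d, and 2 in inhibitory neurons, Camk2b and Camkk1, all higher in D2. At the Camkk1 promoter, whose sequence is printed above, the excitatory sums stood at 39.0 and 40.6 CPM in B6 and 40.4 and 38.9 CPM in D2, which overlapped, with a difference of 0.03 (SE 0.05, adjusted p = 0.77, edgeR). The transcript in the excitatory sums stood at 64.9 and 76.4 against 51.1 and 44.0 CPM. At the Camk2d promoter the difference was 0.12 (SE 0.06) in excitatory and 0.04 (SE 0.08) in inhibitory neurons, and at the Camk2g promoter 0.12 (SE 0.06) and 0.13 (SE 0.09). DESeq2 also called none of the 6 in either class. Without D2 library 3 the Camk2a promoter was called higher in D2 in excitatory neurons (0.17, SE 0.05, adjusted p = 0.024, edgeR).

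The genes that supply calmodulin and act around these kinases were counted from lists, 35 genes in all. Over 561 tests in the 17 cell types, 21 were called higher (3.74%) and 66 lower (11.8%) in D2, where 12.9% and 9.25% of all tests were. Over symbols with counts in both strains, 3.20% of the listed tests were higher and 10.7% lower, against 6.24% and 8.40% of all tests. The median log2 difference over the listed genes was -0.08.

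Of 34 tests of the calmodulin genes Calm2 and Calm3, 7 (20.6%) were called higher in D2 and 0 lower, against 12.9% and 9.25% of all tests. Calm2 was higher in 6 types, by 0.42 (SE 0.07, adjusted p = 0.00031, edgeR) in Exc-DG. Calm3 was called higher in Exc-ENT alone, by 0.72. Among the proteins that hold calmodulin in neurons, Nrgn (neurogranin) was higher in D2 in 7 excitatory types, by 0.38 (SE 0.10) in Exc-DG and up to 0.63. Pcp4 was lower in 5 types, by -1.69 (SE 0.10, adjusted p = 4.9e-09, edgeR) in Exc-DG. Gap43 was not called in any type. This list of 3 genes had 7 calls higher (14.9%) and 5 lower (10.6%) in 47 tests, near the 12.9% and 9.25% of all tests.

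Of 125 tests of 8 other genes of the kinase family, 2 (1.60%) were called higher and 27 (21.6%) lower in D2, against 12.9% and 9.25% of all tests. Dapk1, a death-associated protein kinase that binds calmodulin, was lower in 11 of 17 types, by -0.55 (SE 0.07, adjusted p = 1.8e-05, edgeR) in Exc-DG. Camk1g, a CaMKI gene, was lower in 3 types, by -3.53 (SE 0.57) in Exc-DG. Camk1 was higher in Exc-DG (0.60, SE 0.18) and lower in 4 other types. Camkv was lower in Exc-CA1-Galntl6, NN-Astro, NN-ODC and NN-OPC, and Dclk1 in 3 neuronal types and NN-ODC, and in Exc-DG their fits were 0.00 (SE 0.07 and 0.06). Among the 4 inhibitors and phosphatases of CaM kinases, Camk2n1, an inhibitor protein of CaMKII, was lower in 5 types, by -0.46 (SE 0.09) in Exc-DG, and Ppm1e, a phosphatase that acts on CaM kinases, in 5, by -0.26 (SE 0.07) in Exc-DG. The list as a whole had 1 call higher (1.64%), Camk2n2 in Exc-ENT, and 10 lower (16.4%) in 61 tests, against 12.9% and 9.25% of all tests.

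The 4 calcineurin subunit genes encode the calmodulin-dependent phosphatase. Of these, Ppp3ca was lower in 3 types, by -0.15 to -0.23, and the other 3 genes were not called. The lower calls made up 4.48% of the 67 tests of the list, against 9.25% of all tests. Of 227 tests of 14 genes for substrates and partners, 4 were higher (1.76%) and 21 lower (9.25%) in D2. Of all tests, 12.9% were called higher and 9.25% lower, so the share of lower calls in this list was that of all tests. Gria1, an AMPA receptor subunit that CaMKII phosphorylates, was lower in 9 types, by -0.19 (SE 0.06, adjusted p = 0.021, edgeR) in Exc-DG. Lrrc7 (densin), a postsynaptic partner of CaMKII, was lower in 6 types, by -0.19 (SE 0.06) in Exc-DG and by -1.75 in NN-VLMC. Grin2b, the NMDA receptor subunit that binds CaMKII, was lower in 3 glial types and higher in CR-CR. Creb1, Crtc1 and Stk11 were not called in any type. The calls of the listed genes in non-neuronal types, among them Camkv, Dclk1, Dapk1, Camk2n1, Ppm1e, Gria1, Lrrc7 and Grin2b, stand beside the shift of the neuronal markers given above, and its part in them was not tested.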

How the data were processed

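The authors mapped reads with Cell Ranger 6.0.2 (RNA, introns retained) and Cell Ranger ATAC 2.0.0, removed potential doublets with DoubletFinder, assigned nuclei to cell types, and deposited raw counts of gene symbols and of peaks, summed per cell type and library. The libraries of a strain are numbered 1 and 2 in the labels and 2 and 3 in the column names, so columns numbered 3 were placed by elimination. Methylation samples were not analysed here.

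From these counts, CPM was computed on column totals. Differences were tested with the edgeR 4.0.16 quasi-likelihood F test (R 4.3.3) with TMM factors, over all symbols kept by filterByExpr or all peaks with at least 10 counts, with Benjamini-Hochberg adjustment and a threshold of 0.05. Class and interaction fits had the library as a term. The SE given with an edgeR difference is the size of the log2 difference divided by the square root of F, and not an output of the test. RNA columns held 139713 to 11352265 counts. Of 33902 symbols, 24691 had counts in both strains. The 4 libraries of an assay are pools, and where nothing says they came from separate preparations the p-values measure only their spread. The tests were also run on simulated counts with 200 changed genes and the same dispersion for all genes of a run. Such counts cannot show how far the calls here depend on single libraries.

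The alternatives were DESeq2 1.42.0, RLE size factors, no filter, symbols with counts in both strains, leaving out each library, a block for library number, equal weight of cell types (limma 3.58.1) and promoter windows of 1000 bp. All members are named; pathway genes are named where called in at least 3 cell types or in Exc-DG, and those with fewer calls were chosen after their values were seen. The members and lists were chosen with earlier results of these data known. Gene and promoter positions come from GENCODE vM21 and RefSeq (GRCm38.p6). Some items of the lists are not reported here, and counts and sums over lists leave them out.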

Additional observations from a re-analysis of the deposited data

Results flagged for a closer look

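The strain difference in class sums differed between classes for 3 genes by a test of the difference itself (edgeR, D2 minus B6, log2). For Camk4 the inhibitory minus the excitatory difference was 0.49, although Inh-Lamp5 (-0.43) and Inh-MGE (-0.15) had fits below 0 and Inh-CGE (0.39) alone was above. For Camk2a and Camk2g the glial minus the excitatory difference was -0.46 and 0.36. The Camk2a difference did not pass without D2 library 3. The neuronal marker sum in glia was also lower in D2, with log2 ratios of -0.62 in NN-Astro, -0.65 in NN-ODC, -0.30 in NN-OPC and -0.72 in NN-MGC. Its part in the Camk2a difference was not tested. The fits of Camk2g within the glial types were 0.16 to 0.47, its F test over the 17 cell types did not pass (0.68), and the share of astrocytes in the glial sums was higher in D2, so for Camk2g the sums do not separate a class-dependent strain difference from the mix of glial types. Contrasts chosen after the values were seen gave 0.65 for Camk4 in Inh-CGE against Inh-MGE and Inh-Lamp5, 0.69 for Camk4 in Inh-CGE against excitatory neurons, and -0.80 for Camk2d in Exc-Gpc6 and Inh-Lamp5 against the other neurons, a sum that moves with the share of Exc-CA1-Camk2d. Over the 17 cell types, the F test of unequal strain differences also passed for Camk2a (4.84), Camk4 (3.90) and Camk2d (2.51). The contrast of Camk4 in Inh-CGE against excitatory neurons ran from 0.59 to 0.77 without each of the 4 libraries. The cell types of these contrasts were picked from the same values, so the contrasts are not independent support.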

How the results depend on the processing

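With 2 libraries a strain, calls between strains depended on single libraries. Of 33 transcript calls, 16 held without each library in turn, and no call changed sign under any alternative. The number of calls ran from 21 (without D2 library 3) to 33 (without D2 library 2) with a library left out and was 17 with DESeq2, where the cause was not tested. The number of class interactions, 3, ran from 0 (without D2 library 3) to 4 (without B6 library 3). Promoter calls between strains ran from 0 to 1, the latter without D2 library 3. Excitatory against inhibitory promoter accessibility kept all 6 calls under all alternatives run. TMM over all columns moved the mean level of Camk2a in Exc-DG from 1050 to 1187 CPM, of Camk2b in Exc-DG from 348 to 393 CPM and of Camkk2 in NN-MGC from 100.9 to 79.1 CPM.

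The libraries share only a number between strains: deviations of same-numbered libraries correlated by -0.16 (Inh-MGE) to 0.07 over the 17 cell types. With the replicate block 35 transcript calls passed, Camk2b in Exc-ENT and Camkk2 in Inh-MGE being lost, and 0 promoter calls between strains. With the numbers crossed, an alternative added after seeing the data, 36 passed. Class tests without the block gave 12 of 14 transcript calls and 6 of 6 promoter calls.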
